A study of Mus musculus with 6 samples.

Results

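The interferon regulatory factors (IRFs) are transcription factors that share an N-terminal DNA-binding domain and recognize GAAA repeats in the promoters of interferon (IFN) genes and of the genes that IFN induces. *Irf1*, *Irf2*, *Irf3*, *Irf4*, *Irf5*, *Irf7*, *Irf8* and *Irf9* were taken by symbol from a table of 55453 genes counted by bulk RNA-Seq in mouse bone marrow-derived macrophages (BMDM), giving 8 members of 55453 genes. The genes of IRF2-binding proteins were not counted as members. Of the 8 members, 8 passed the filter on low counts, which kept 13680 genes in all.

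The comparison asked how the genes of this family differed between macrophages without and with the catalytic subunit of protein phosphatase 2A (PP2Ac), which is encoded by *Ppp2ca*. PP2Ac-KO BMDM (3 libraries) came from LysM-cre PP2Ac fl/fl mice on C57BL/6, in which exon 1 of *Ppp2ca* is floxed and cre is driven by the promoter of *Lyz2*, a gene of myeloid cells. PP2Ac-WT BMDM (3 libraries) came from WT C57BL/6 mice bought from a vendor, so that loss of PP2Ac, the cre and floxed alleles and the mouse colony cannot be told apart. The labels give no treatment and no time. The study's text describes RNA-Seq of BMDM exposed to the STING agonist cGAMP in both genotypes, and no untreated libraries were analysed here. For cell experiments in general the study describes its triplicates as biological. The sources used here do not say whether the 3 libraries of a genotype came from separate mice, and p-values measure the spread between these libraries. Mice of both sexes were used in the study, and in all 6 libraries *Xist* had at most 3 counts while the Y-linked genes *Ddx3y*, *Eif2s3y*, *Kdm5d* and *Uty* were expressed, with none of the 4 called between genotypes.

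In macrophages, cytosolic DNA is sensed by cGAS, whose product cGAMP activates STING, and STING recruits the kinase TBK1 to phosphorylate IRF3. Phosphorylated IRF3 enters the nucleus and induces IFN-β, which acts back on the cells through its receptor and the complex ISGF3, which holds IRF9 and STAT proteins. That complex in turn induces *Irf7*, so that part of the family acts before IFN and part after it.

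Library totals ran from 35257156 to 47390899 counts, and a count of 3, taken as the floor, corresponded to 0.0604 to 0.0909 CPM (counts scaled to the size of the library). *Ppp2ca* had 47, 33 and 38 counts in the PP2Ac-KO libraries and 10654, 8913 and 8279 counts in the PP2Ac-WT libraries. Of 6 macrophage markers, 6 were tested and 2 were higher in PP2Ac-KO at adjusted p under 0.05, against 18.1% of all tested genes. The 6 markers had a summed level of 7286 to 7474 CPM in PP2Ac-KO and 6162 to 6794 CPM in PP2Ac-WT libraries. Fibroblast markers were lower in PP2Ac-KO for 4 of 4 genes (summed 22.7 to 33.4 CPM, against 74.9 to 117.7 CPM), and proliferation genes for 6 of 6 (61.5 to 67.5 CPM, against 119.4 to 149.5 CPM). The share of all tested genes that were lower was 19.0%. Markers of T and NK cells, neutrophils and progenitors, and epithelium reached at most 7 counts in any library. These shifts moved with the genotype, and their part in the results below was not tested.

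Promoter sequence of *Irf1*, *Irf2* and *Irf8* is shown because these were the members in whose promoter windows a script found letters recognized by IRF or STAT proteins. Windows ran from 250 bases before to 50 bases after each RefSeq start in GRCm38.p6, and the 8 members had 11 of them. Capitals mark matches, on either strand, to the IRF element (GAAA, any 2 bases, GAAA), to the gamma-activated site bound by STAT proteins (TTC, any 3 bases, GAA), and to the composite element bound by PU.1 with IRF4 or IRF8 (GGAA, any 2 bases, GAAA). The stretches lie on the forward strand at chr11:53769904-53769952, chr8:46739495-46739549 and chr8:120736167-120736233.
Irf1: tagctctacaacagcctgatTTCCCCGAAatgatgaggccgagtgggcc
Irf2: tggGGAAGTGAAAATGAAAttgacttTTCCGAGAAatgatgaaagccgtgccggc
Irf8: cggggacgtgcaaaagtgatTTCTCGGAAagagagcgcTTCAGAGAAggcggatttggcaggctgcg

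The gamma-activated site began 90 bases before the start of *Irf1*, 224 bases before that of *Irf2*, and 171 and 153 bases before that of *Irf8*. It occurred in 8.3% of 32851 RefSeq promoter windows. The IRF element and the composite element overlapped in *Irf2*, beginning 241 and 247 bases before the start, and occurred in 3.44% and 2.72% of all windows. The windows of *Irf3*, *Irf4*, *Irf5*, *Irf7* and *Irf9* did not hold these letters. Both windows of *Irf9* lie inside its GENCODE gene span, which starts at 55603571, so that no sequence before that start was searched. A match is a description of the sequence and was not tested for binding.

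Per length, *Irf7* was the most abundant member in both genotypes and *Irf4* the least. Levels are given as CPM per kilobase (1000 bases) of the union of annotated exons. *Irf7* had 461.9 ± 36.9 in PP2Ac-KO and 160.3 ± 31.5 in PP2Ac-WT libraries (SD, n = 3). *Irf5* followed with 196.7 ± 3.75 and 117.6 ± 5.75 CPM per kilobase, and *Irf1* with 143.5 ± 5.26 and 91.95 ± 6.81. *Irf2*, *Irf9* and *Irf8* lay between 22.2 and 37.8 CPM per kilobase in the PP2Ac-KO libraries and between 17.2 and 25.3 in the PP2Ac-WT libraries. *Irf3* had 9.999 ± 0.454 and 10.35 ± 0.851 CPM per kilobase, and *Irf4* had 0.30 ± 0.0509 and 0.279 ± 0.0147. The order of the 8 members was the same in both genotypes, and neighbors in it did not overlap between libraries except for *Irf2* and *Irf9* in PP2Ac-WT. *Irf7* made up 49.4% to 52.6% of the summed per-length level of the family in PP2Ac-KO and 32.9% to 39.4% in PP2Ac-WT libraries. Annotated transcripts with retained introns cover the whole of *Irf7*, so its exon length equals its span of 3776 bases, and the order of *Irf1* and *Irf5*, and of *Irf8* and *Irf9*, turned when the longest transcript was used instead.

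**Figure D1:**
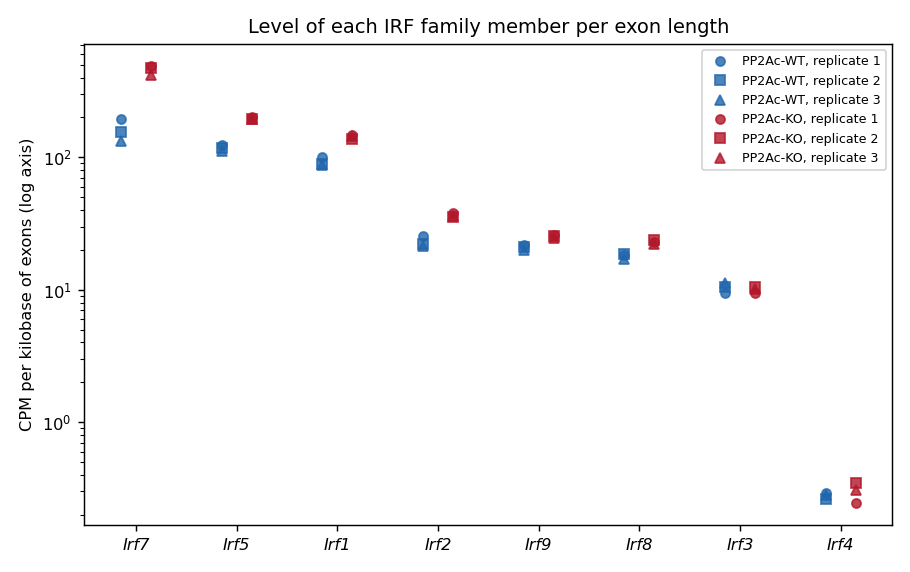
Level of each member in CPM per kilobase of exons (log axis) in the 3 PP2Ac-WT and 3 PP2Ac-KO libraries, with 1 point per library. *Irf7* lies highest in both genotypes and *Irf4* lowest, and the libraries of the genotypes are mixed for *Irf3* and *Irf4*.

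Between genotypes, *Irf1*, *Irf2*, *Irf5*, *Irf7*, *Irf8* and *Irf9* were higher in PP2Ac-KO, and *Irf3* and *Irf4* were not called. In the quasi-likelihood test of edgeR, with p-values adjusted by Benjamini-Hochberg over 13680 genes and called under 0.05, 6 of the 8 members were higher, against 18.1% of all tested genes. Of all tested genes, 37.1% were called in either direction. The count of members called lower was 0, against 19.0% of all tested genes, and it was also 0 at an unadjusted p under 0.05, with DESeq2 and with limma-voom. *Irf7* alone was more than 2-fold higher at adjusted p under 0.01, a rule that 3.36% of all tested genes passed, and 2.99% passed its mirror for lower genes, with 0 of the members. Libraries of the genotypes did not overlap for the 6 members called, as was the case for 50.9% of all tested genes. Of all calls, 48.7% were higher in PP2Ac-KO, and 38.4% with upper-quartile scaling. The median log2 fold change was 0.50 over the members and -0.02 over all tested genes. In bulk RNA, a change in the share of cells and a change in RNA per cell cannot be told apart.

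**Figure D2:**
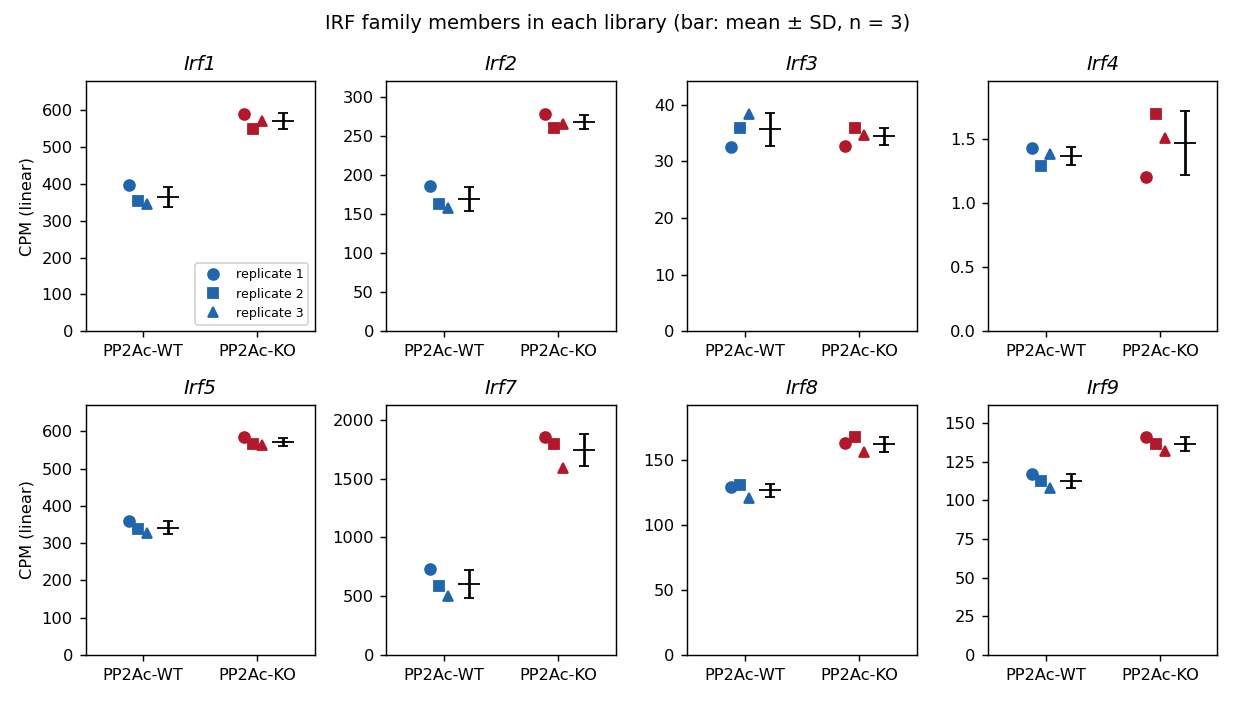
CPM of each member in each library (linear axes from 0, with a separate scale for each gene), with the mean and SD of the 3 libraries beside the points. For *Irf3* and *Irf4* the genotypes overlap, and for the other members every PP2Ac-KO library lies above every PP2Ac-WT library.

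IRF3 is the factor that STING activates through TBK1, and it is regulated mainly by phosphorylation. *Irf3* (chromosome 7, 44997648 to 45002848, forward strand, GRCm38) had 32.7, 35.8 and 34.7 CPM in the PP2Ac-KO libraries 1, 2 and 3 and 32.6, 35.9 and 38.4 CPM in the PP2Ac-WT libraries. The genotypes overlapped, and the lowest library of each was number 1. The log2 fold change was -0.05 (SE 0.0747, adjusted p = 0.636 from edgeR), with a 95% interval of the fold change from 0.859 to 1.085. *Bcl2l12* on the opposite strand shares 2.56% of the exon bases of *Irf3* and had 164 to 273 counts, against 1183 to 1619 for *Irf3*. RNA counts do not show the phosphorylated form of the protein.

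IRF7 drives the IFN-α genes and is itself induced by IFN. *Irf7* (chromosome 7, 141262706 to 141266481, reverse strand) had 1852, 1794 and 1587 CPM in PP2Ac-KO and 733.9, 583.5 and 498.9 CPM in PP2Ac-WT libraries. The lowest PP2Ac-KO library was thus above the highest PP2Ac-WT library, and library 3 was the lowest in each genotype. The mean was 1744 ± 139 CPM against 605.4 ± 119 CPM (SD, n = 3), a 2.88-fold difference. The log2 fold change of *Irf7* was 1.53 (SE 0.134, 95% interval 1.22 to 1.83, adjusted p = 9.07e-05 from edgeR), and 1.32% of all tested genes had a higher one. Between libraries of the same replicate number the fold was 2.52, 3.07 and 3.18. *Phrf1* on the opposite strand shares 1.19% of the exon bases of *Irf7* and had 1429 to 2738 counts, against 20913 to 78562 for *Irf7*.

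IRF9 is the subunit of ISGF3 that recognizes DNA. *Irf9* (chromosome 14, 55603571 to 55610030, forward strand) had 140.7, 136.2 and 132.2 CPM in PP2Ac-KO and 117.2, 112.4 and 107.9 CPM in PP2Ac-WT libraries. The groups did not overlap, but the difference was the smallest among the 6 members called, at 1.21-fold (log2 fold change 0.28, SE 0.0619, adjusted p = 0.00697 from edgeR). *Rnf31*, on the same strand, shares 2.28% of the exon bases of *Irf9* and had 3448 to 6146 counts, against 4497 to 5970 for *Irf9*, so that reads from the shared bases cannot be assigned with certainty.

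*Irf1* and *Irf2* encode factors that bind the same sites, IRF1 as an activator induced by IFN-γ and IRF2 as a factor first known as its antagonist. *Irf1* (chromosome 11, 53770014 to 53778374, forward strand) had 590.9, 549.2 and 572.1 CPM in PP2Ac-KO and 396.6, 353.7 and 346.6 CPM in PP2Ac-WT libraries. *Irf2* (chromosome 8, 46739732 to 46847458, forward strand) had 279.2, 260.9 and 265.8 CPM in PP2Ac-KO and 187.0, 162.7 and 158.2 CPM in PP2Ac-WT libraries. Both genes were highest in library 1 of each genotype, and neither overlapped between genotypes. *Gm17334*, which shares 3.4% of the exon bases of *Irf1* on the opposite strand, had 1 to 3 counts. *Irf1* was 1.56-fold higher (log2 fold change 0.64, SE 0.0747, adjusted p = 0.00028 from edgeR). *Irf2* was 1.59-fold higher (log2 fold change 0.67, SE 0.0783, adjusted p = 0.00029 from edgeR). Reads of *Irf1* per read of *Irf2* were 2.12, 2.1 and 2.15 in PP2Ac-KO and 2.12, 2.17 and 2.19 in PP2Ac-WT libraries.

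IRF5 acts with MYD88 after Toll-like receptors (TLRs) to induce inflammatory cytokines. *Irf5* (chromosome 6, 29526625 to 29541871, forward strand) had 583.9, 566.1 and 564.2 CPM in PP2Ac-KO and 359.6, 338.7 and 326.6 CPM in PP2Ac-WT libraries. The groups were far apart relative to their spread, with means of 571.4 ± 10.9 and 341.6 ± 16.7 CPM (SD, n = 3). The difference was 1.67-fold (log2 fold change 0.74, SE 0.0662, adjusted p = 9.29e-05 from edgeR), second to that of *Irf7* among the members. *Tnpo3* on the opposite strand shares 14.1% of the exon bases of *Irf5* and had 2426 to 3660 counts, against 13690 to 24773 for *Irf5*. The library kit keeps the strand, but the strand setting used for counting is not given in the sources used here, so that reads of the shared bases remain uncertain.

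IRF8 and IRF4 are related factors of hematopoietic cells that bind DNA weakly alone and partner with PU.1, and IRF8 directs monocyte and dendritic cell development. *Irf8* (chromosome 8, 120736358 to 120756694, forward strand) had 163.1, 167.7 and 156.5 CPM in PP2Ac-KO and 129.3, 130.6 and 121.1 CPM in PP2Ac-WT libraries. The groups did not overlap, and the difference was 1.28-fold (log2 fold change 0.35, SE 0.0629, adjusted p = 0.00214 from edgeR). *Irf4* (chromosome 13, 30749226 to 30766976, forward strand) had 1.2, 1.7 and 1.51 CPM in PP2Ac-KO and 1.43, 1.29 and 1.38 CPM in PP2Ac-WT libraries, from 51 to 71 counts each. The PP2Ac-KO libraries held both the lowest and the highest value of *Irf4*. Its log2 fold change was 0.09 (SE 0.182, adjusted p = 0.72 from edgeR), with an interval of the fold change from 0.803 to 1.419, so that a smaller change was not detectable at this depth. Of 5 dendritic cell markers 3 were tested and 2 were higher in PP2Ac-KO, against 18.1% of all tested genes. The 2 were *Clec9a*, at 8 to 54 counts per library, and *Siglech*, at 12 to 29. The 5 markers had a summed level of 1.87 to 2.88 CPM against 0.954 to 1.69 CPM. Of 5 B cell markers 2 were tested and neither was called, with a summed level of 1.51 to 2.11 CPM against 1.13 to 1.38 CPM.

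**Figure D3:**
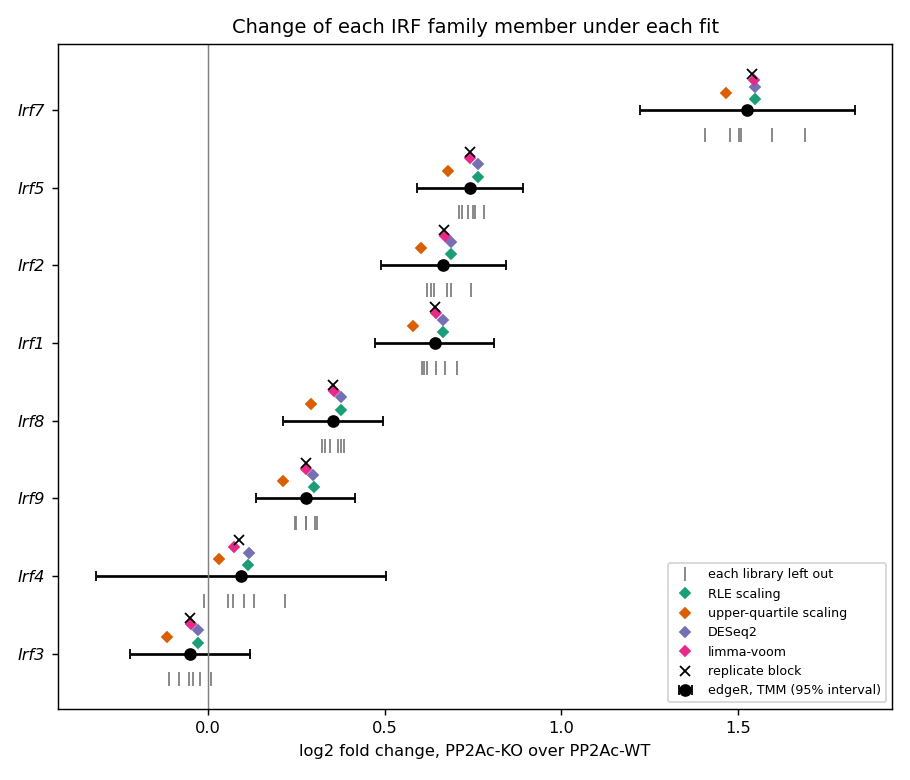
Log2 fold change of each member, PP2Ac-KO over PP2Ac-WT, with its 95% interval from edgeR with TMM scaling (black), and the values with other scalings, tests, the replicate block and each library left out (smaller marks). *Irf7* lies at 1.53, the other members called between 0.28 and 0.74, and the intervals of *Irf3* and *Irf4* include 0.

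Ratios between members within a library do not depend on the scaling of libraries. Reads of *Irf7* per read of *Irf3*, the IFN-induced against the constitutive factor, were 56.6, 50.1 and 45.8 in PP2Ac-KO and 22.5, 16.3 and 13.0 in PP2Ac-WT libraries. The ratios did not overlap, and their log2 means of 5.66 ± 0.154 and 4.07 ± 0.4 (SD, n = 3) differed by 1.59 (exact 2-sided permutation test, p = 0.1, which is the smallest p that 3 against 3 libraries allow). The log2 ratio of *Irf5* to *Irf4* did not overlap either, at 8.62 ± 0.278 and 7.97 ± 0.0785 (exact permutation test, p = 0.1). The log2 ratio of *Irf1* to *Irf2* overlapped, with a difference of -0.03 (exact permutation test, p = 0.2), and so did that of *Irf8* to *Irf4*, with a difference of 0.26 (exact permutation test, p = 0.2). Adjusted over the 4 pairs of genes, each p was 0.2 (Benjamini-Hochberg, exact permutation test). Between libraries of the same replicate number, PP2Ac-KO was lower in 3 of 3 for *Irf1* to *Irf2*, higher in 3 of 3 for *Irf7* to *Irf3* and for *Irf5* to *Irf4*, and higher in 2 of 3 for *Irf8* to *Irf4*. An exact permutation of signs within these library pairs cannot give a p below 0.25, which the first 3 of these ratios reached.

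**Figure D4:**
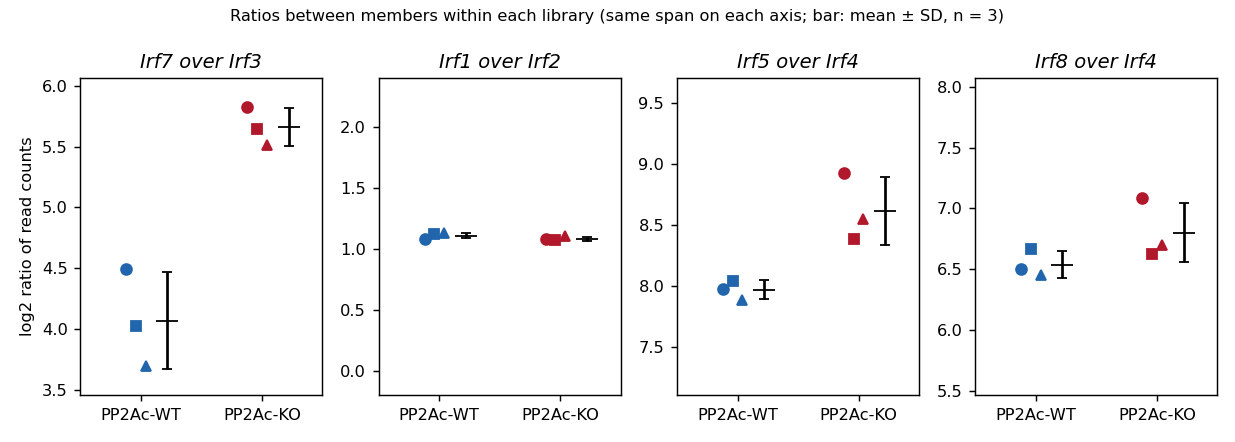
Log2 ratio of the read counts of 4 pairs of members in each library, with the mean and SD of 3 libraries and axes of equal span. The ratio of *Irf7* to *Irf3* and that of *Irf5* to *Irf4* are higher in every PP2Ac-KO library, and that of *Irf1* to *Irf2* lies between 1.07 and 1.13 in all 6 libraries.

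Genes of the pathways that lead to IRF activation were partly higher in PP2Ac-KO. Whether these differences arose before or after IFN acted on the cells was not tested. The pathway list held 22 sensors, adaptors, kinases and receptors that lead to IRF activation. Of these, 12 were higher and 1 was lower, against 18.1% and 19.0% of all tested genes, and 9 were not called. The median log2 fold change of the 22 genes was 0.29. With the replicate number as a block, 14 were higher and 2 were lower. The block also called more of the 13680 tested genes, 3343 higher and 3615 lower, against 2470 and 2604 without it. The largest differences were those of *Tlr3*, the receptor for double-stranded RNA (288.7 ± 31.1 against 92.2 ± 30.4 CPM, log2 fold change 1.65), *Tlr9*, the receptor for CpG DNA (252.2 ± 54.6 against 119.4 ± 19.6 CPM, log2 fold change 1.08), and *Myd88*, the adaptor of most TLRs (341.9 ± 13.5 against 167.1 ± 18.2 CPM, log2 fold change 1.03). In edgeR, their adjusted p-values were 0.000315, 0.000812 and 7.42e-05.

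On the STING branch itself, *Cgas* had 42.4 ± 0.526 against 32.4 ± 2.76 CPM, *Sting1* 32.5 ± 3.01 against 25.5 ± 1.24 CPM, and *Tbk1* 158.1 ± 9.54 against 115.6 ± 12.6 CPM (SD, n = 3). Their log2 fold changes were 0.39, 0.35 and 0.45, and these genes were among the 12 called higher. *Ikbke*, which encodes the TBK1-related kinase IKKε, had a log2 fold change of 0.91. On the RNA-sensing branch, *Mavs*, the adaptor of RIG-I and MDA5, was the gene called lower, at 32.9 ± 1.06 against 44.9 ± 3.49 CPM (log2 fold change -0.45). *Rigi* and *Ifih1*, the genes of these RNA sensors, were called higher, with log2 fold changes of 0.96 and 1.01. *Cgas*, *Sting1*, *Tbk1*, *Ikbke*, *Mavs*, *Rigi* and *Ifih1* were chosen after their values were seen.

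*Ifnar1* and *Jak1*, genes of IFN-receptor signaling, were the most abundant of the pathway genes that were not called. *Ifnar1*, a chain of the receptor for IFN-α and IFN-β, had 218.8 ± 10.8 against 191.7 ± 9.99 CPM (log2 fold change 0.19, adjusted p = 0.0565 from edgeR, which became 0.00222 with the block). *Jak1*, its kinase, had 251.9 ± 9.6 against 228.5 ± 19.3 CPM (log2 fold change 0.14, adjusted p = 0.181 from edgeR, which became 0.0176 with the block).

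Of 18 partners and modulators of IRFs, 11 were higher, against 18.1% of all tested genes, and 7 were not called. With the block, 13 of the partners and modulators were higher, against 3343 of all 13680 tested genes. The median of their log2 fold changes was 0.36. *Batf2*, whose protein partners with IRF1, had 57.4 ± 5.66 against 21.7 ± 2.42 CPM (log2 fold change 1.40). *Usp18*, which removes ISG15 from proteins and restrains IFN-receptor signaling, had 774.0 ± 76 against 321.2 ± 71.3 CPM (log2 fold change 1.27). *Lyn*, a kinase that restrains IRF5, had 922.4 ± 62 against 439.2 ± 94.8 CPM (log2 fold change 1.07). In edgeR, their adjusted p-values were 5.4e-05, 0.000281 and 0.000436. The most abundant of those not called were *Ep300*, a histone acetyltransferase that serves as an IRF3 coactivator (log2 fold change 0.29, adjusted p = 0.0847 from edgeR, which became 0.000371 with the block), and *Irf2bpl* (log2 fold change 0.15, adjusted p = 0.17 from edgeR).

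Of 13 well known targets of IRF3 and ISGF3, 13 were higher in PP2Ac-KO, against 18.1% of all tested genes. More than 2-fold higher at adjusted p under 0.01 were 9 of them, against 3.36% of all tested genes. The median log2 fold change of the 13 targets was 1.12. *Oasl1* had 1341 ± 151 against 433.9 ± 88.5 CPM (log2 fold change 1.63, adjusted p = 9.73e-05 from edgeR); its protein restrains translation of *Irf7* RNA. *Cxcl10*, a chemokine gene induced by IRF3 and by IFN, had 4077 ± 243 against 1583 ± 283 CPM (log2 fold change 1.36). *Ifnb1*, the gene of IFN-β, had 19.2, 13.1 and 15.4 CPM in PP2Ac-KO and 8.86, 5.91 and 4.32 CPM in PP2Ac-WT libraries (log2 fold change 1.32, SE 0.231, adjusted p = 0.002 from edgeR). The groups of *Ifnb1* did not overlap, and library 1 was the highest in each genotype.

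Of 11 targets of IRF1, 10 were tested, 9 were higher and 1 was lower, against 18.1% and 19.0% of all tested genes. The median log2 fold change of the tested targets was 0.99. *Nos2*, which encodes inducible nitric oxide synthase, had 7.12, 4.18 and 4.53 CPM in PP2Ac-KO and 0.906, 0.529 and 0.406 CPM in PP2Ac-WT libraries (log2 fold change 3.08, SE 0.302, adjusted p = 0.000137 from edgeR). *Cxcl9*, a chemokine gene induced by IFN-γ, had 54.2 ± 7.58 against 11.4 ± 2.9 CPM (log2 fold change 2.24), and *Gbp2*, a gene of an IFN-induced GTPase, 1165 ± 121 against 365.9 ± 133 CPM (log2 fold change 1.67). *Ciita*, the coactivator of MHC class II genes, was the target called lower, at 13.4 ± 2.39 against 28.4 ± 3.15 CPM (log2 fold change -1.09, SE 0.127), and was named after its value was seen.

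Of 3 targets of IRF2, 3 were higher, against 18.1% of all tested genes. *Gsdmd*, the gene of the pore-forming gasdermin D, had 130.8 ± 4.01 against 73.8 ± 7.19 CPM (log2 fold change 0.83). *Casp4*, an inflammatory caspase gene, had 100.1 ± 3.96 against 47.7 ± 7.27 CPM (log2 fold change 1.07). In edgeR, their adjusted p-values were 0.000119 and 0.000114.

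Of 6 cytokine targets of IRF5, 3 were tested and 3 were higher, against 18.1% of all tested genes. The median log2 fold change of the 3 was 1.51. *Tnf* had 228.8 ± 26.4 against 75.2 ± 9.7 CPM (log2 fold change 1.61, adjusted p = 5.4e-05 from edgeR), *Il1b* had 80.9 ± 17.3 against 28.4 ± 9.85 CPM (log2 fold change 1.51), and *Il6* had 7.6 ± 1.56 against 3.342 ± 1.07 CPM (log2 fold change 1.18). *Il12a* and *Il23a* had 0 counts in every library, which allows up to 0.0909 CPM in the shallowest, and *Il12b*, the other untested gene, had at most 0.118 CPM.

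Of 8 targets of IRF8, 7 were tested and 4 were higher, against 18.1% of all tested genes. With the block, 5 of the targets were higher, against 3343 of all 13680 tested genes. The median of their log2 fold changes was 0.57. *Pml*, the gene that organizes PML nuclear bodies, had 414.3 ± 36.5 against 197.5 ± 38.6 CPM (log2 fold change 1.07), *Il18* had 22.4 ± 1.18 against 11.4 ± 2.8 CPM (log2 fold change 0.98), and *Klf4*, a factor of monocyte differentiation, had 43.5 ± 7.73 against 24.8 ± 6.43 CPM (log2 fold change 0.81). *Ctss*, which encodes cathepsin S, had 6687 ± 250 against 6349 ± 539 CPM (log2 fold change 0.07, adjusted p = 0.529 from edgeR). *Cst3*, the gene of cystatin C, had 1023 ± 77 against 909.8 ± 78.7 CPM (log2 fold change 0.17, adjusted p = 0.163 from edgeR, which became 0.0051 with the block).

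Of 9 targets of IRF4 in alternative activation, 7 were tested, 2 were higher and 5 were not called. The 2 of 7 lie near the 18.1% of all tested genes that were higher. The median log2 fold change of the 7 was 0.25. With the block, 3 were higher, against 3343 of all 13680 tested genes. *Chil3* was called at a level of 0.857 ± 0.0476 against 0.302 ± 0.165 CPM (log2 fold change 1.46, adjusted p = 0.00891 from edgeR), and *Clec10a* at 9.24 ± 2.05 against 4.32 ± 1.17 CPM (log2 fold change 1.09, adjusted p = 0.00359 from edgeR). *Mrc1*, which encodes the mannose receptor, had 162.0 ± 18.8 against 172.1 ± 29.2 CPM (log2 fold change -0.09, adjusted p = 0.629 from edgeR). *Prdm1*, which encodes the repressor BLIMP1, had 63.2 ± 2.49 against 62.7 ± 4.61 CPM (log2 fold change 0.01, adjusted p = 0.913 from edgeR).

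Over the 8 lists together, 82 of 87 genes were tested, and a gene could stand on more than 1 list. Of these genes, 56 were higher and 2 were lower, against 18.1% and 19.0% of all tested genes. The lists were written with earlier results of these data known, so that their counts are a description. Many listed targets respond to more than 1 factor, and the counts do not assign a gene to a member.

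**Figure D5:**
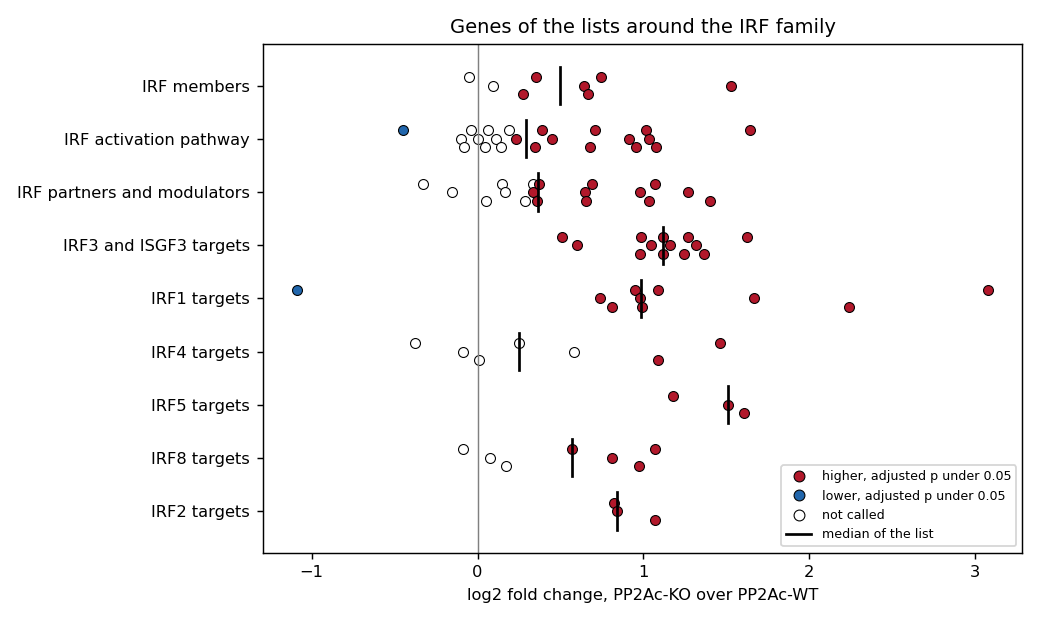
Log2 fold change, PP2Ac-KO over PP2Ac-WT, of each tested gene of the members and of the 8 lists, colored by call at adjusted p under 0.05, with the median of each list as a vertical line. The 13 targets of IRF3 and ISGF3 lie right of 0, between 0.51 and 1.63, as do the tested targets of IRF5 and IRF2. The members, the pathway genes, the partners and the targets of IRF1, IRF4 and IRF8 lie on both sides of 0.

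The genes whose pattern over the 6 libraries was most like that of a member were found by Pearson's r of log2 CPM among 13679 genes. These points share libraries and genotype, and r is given as a description. For *Irf7* they were *Oas1a* (r = 0.9999), *Isg15* (r = 0.9996) and *Inpp5k* (r = 0.9995), with log2 fold changes of 0.98, 1.16 and 0.40. For *Irf2* they were *Casp4*, *Cxcl10* and *Ncstn*, and for *Irf1* they were *Spryd7*, *Zyx* and *Calhm6*. *Irf5* was near to *Tmbim6* and *Ift22*, *Irf8* was nearest to *Lpcat2*, *Ubl3* and *Eif1*, and *Irf9* to *Rnf4*, *Pde7a* and *Pde4b*. For the members not called, the nearest genes were *Dpf1* (r = 0.9894), *Cc2d1b* and *Rps2-ps10* for *Irf3*, and *Gm3788* (r = 0.9865), *Cd302* and *Stip1* for *Irf4*. A shared difference between genotypes by itself raises r, so that r is not comparable between members called and not called.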

How the data were processed

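Poly(A) RNA of BMDM was sequenced as paired-end libraries with a directional kit. The authors deposited 1 table of raw counts per gene, whole numbers without normalization. The submitters' processing notes name fastp 0.20.0, kallisto 0.46.1, STAR 2.7.1a, HTSeq 0.11.2, edgeR 3.34.0, limma 3.48.3 and the builds mm10 and GRCm38, without their roles. Reads shared by overlapping genes could be lost or assigned to either gene, and the strand setting is not given in the sources used here.

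Groups and replicate numbers came from the labels. In R 4.3.3, genes were kept with edgeR 4.0.16's filterByExpr (minimum count 10, minimum total 15), scaled by TMM and tested for genotype with glmQLFit and glmQLFTest, with Benjamini-Hochberg adjustment. CPM use TMM-scaled library sizes of the genes kept, errors are SD of 3 libraries, and correlations use a prior count of 2. Exon lengths and coordinates are from GENCODE M21 (GRCm38), and promoter windows from RefSeq (GRCm38.p6), matched by symbol for 8 of 8 members. Replicates of a genotype differed by more than counting noise (chi-square per degree of freedom 9.32 to 45.5). Variation between libraries therefore exceeded what total counts alone would give, and floors cover counting error only.

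The members and lists were chosen with earlier results of these data known. The lists of pathway genes, partners, targets and markers were written by hand. The genes named were the members, *Ppp2ca*, on each list up to 3 genes with the largest change past adjusted p under 0.05 and up to 2 with the highest CPM that did not pass, and the 3 genes nearest in pattern to each member. Some genes under this rule are not reported here. Replicate numbers 1, 2 and 3 occur in both genotypes, and the labels do not state a pairing. Deviations from the group means correlated at 0.289, 0.148 and 0.337 between libraries of the same number and at -0.258 to -0.0312 between others. Such deviations are centered within a genotype, so that positive values between some libraries push the others down. The replicate number was taken to pair libraries and used as a block in an alternative fit only. Other alternatives were RLE and upper-quartile scaling, DESeq2 1.42.0, limma-voom (limma 3.58.1), filters on low counts, each library left out, and transcript length. The fits were tested on simulated data with known changes. The simulation gave every gene the same dispersion and held no effect of the replicate number, so that it does not cover these features of the data. Whether members' promoter matches go with change across genes is not reported, because 73.6% of tested genes had a promoter entry by symbol, under the 80% set for such a check, which made it void.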

Additional observations from a re-analysis of the deposited data

How the results depend on the processing

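The count of members called was 6 higher and 0 lower, with 1 over 2-fold, in each of the 13 alternatives. *Irf3* and *Irf4* were not called in any of them, and their small differences changed sign when 1 library was left out, to 0.009 for *Irf3* without PP2Ac-WT replicate 3 (adjusted p = 0.949 from edgeR) and to -0.012 for *Irf4* without PP2Ac-KO replicate 2 (adjusted p = 0.974 from edgeR). Leaving out each library in turn gave log2 fold changes of 1.406 to 1.689 for *Irf7*, 0.712 to 0.781 for *Irf5*, 0.621 to 0.744 for *Irf2*, 0.607 to 0.706 for *Irf1*, 0.323 to 0.384 for *Irf8*, 0.248 to 0.308 for *Irf9*, -0.111 to 0.009 for *Irf3* and -0.012 to 0.218 for *Irf4*. The highest adjusted p over the alternatives was 0.0312 for *Irf9* and 0.0137 for *Irf8*. Every alternative kept a scaling of libraries beyond their total counts, and total counts alone were not tried. TMM factors moved with the genotype, at 0.9098 to 0.9375 in PP2Ac-KO and 1.049 to 1.097 in PP2Ac-WT libraries. How far the small differences of *Irf3*, *Irf8* and *Irf9* depend on this scaling was not tested. With the replicate number as a block, 6 members were higher (*Irf7* 1.541, adjusted p = 2.54e-08 from edgeR), no member's call changed, and 3343 genes were higher and 3615 lower among all tested. Among named genes of the lists, the block called *Jak1*, *Ifnar1*, *Ep300* and *Cst3* higher and *Irak1* lower (-0.10, adjusted p = 0.0489 from edgeR, named after its value was seen). Without PP2Ac-WT replicate 1, *Jak1* (0.214), *Ifnar1* (0.233) and *Ep300* (0.363) were called higher, and without PP2Ac-WT replicate 3 *Irf2bpl* (0.235) was. *Ifnar1* was also called with RLE scaling (adjusted p = 0.0464 from edgeR) and with DESeq2 (adjusted p = 0.0313), and *Ep300* without a filter on low counts (adjusted p = 0.0118 from edgeR). *Prdm1* changed sign with upper-quartile scaling (-0.052) and without PP2Ac-KO replicate 3 (-0.012), PP2Ac-WT replicate 2 (-0.004) or PP2Ac-WT replicate 3 (-0.029), and reached 0.073 without PP2Ac-WT replicate 1. *Mrc1* ran from -0.211 without PP2Ac-WT replicate 2 to 0.03 without PP2Ac-WT replicate 3. Genes of the lists called higher numbered 55 to 60, and those lower 2 to 3, with each library left out. With the longest transcript in place of all exons, the level in PP2Ac-WT was 171.1 CPM per kilobase for *Irf1*, 42.69 for *Irf2*, 17.55 for *Irf3*, 152.4 for *Irf5*, 36.61 for *Irf8* and 29.09 for *Irf9*. Depth limited *Irf4* most, at 51 to 71 counts per library.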

Other observations

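Members also differed among libraries of 1 genotype. In log2 CPM relative to the mean of its genotype, *Irf7* lay at 0.0897, 0.0437 and -0.133 in PP2Ac-KO libraries 1, 2 and 3 and at 0.296, -0.0349 and -0.261 in the PP2Ac-WT libraries. *Irf3* lay at -0.0709, 0.0592 and 0.0118 in PP2Ac-KO and at -0.126, 0.0136 and 0.112 in PP2Ac-WT libraries. Library 1 was thus the lowest of its genotype for *Irf3* and the highest for *Irf7* in both genotypes. It was also the highest for *Irf1*, *Irf2*, *Irf5* and *Irf9* in both genotypes, while *Irf8* was highest in library 2.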
